A study of Homo sapiens with 14 samples.

Results

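Glucose deprivation for 6 h was examined in KMT2D-WT cells. The 6 libraries labelled wild type were taken from the 14 libraries of the series by their titles, 3 from cells deprived of glucose, called (-Glc), and 3 from cells kept in high glucose, called (+Glc). All of them are polyA RNA-seq of SCC23, an established human head and neck squamous cell carcinoma (HNSCC) line grown in high-glucose medium with serum. Wild type here refers to KMT2D, a histone methyltransferase gene that was targeted by CRISPR/Cas9 editing in the other libraries of the series. The methods of the study describe control cells that received a Cas9 plasmid with a guide RNA against LacZ, a bacterial gene, and were sorted and cultured further. Experiment 1 gave 1 library of each condition and experiment 2 gave the pair WT1 and WT2 of each condition. The labels do not say whether WT1 and WT2 are separate cultures, so that p-values measure only the spread between these libraries. The 8 libraries labelled KMT2D-KO, 4 of each condition, served for comparison. In (+Glc) their KMT2D level was 189 and 196 CPM (counts per 1000000 counts of a library) in line KO1, below the 285 to 296 CPM of KMT2D-WT cells, but 324 and 375 CPM in line KO2, above every KMT2D-WT library. In (-Glc) it was 17.5 to 164 CPM, below the 247 to 253 CPM of KMT2D-WT cells. The transcript level of the libraries labelled KO2 in (+Glc) thus goes against a loss of KMT2D RNA. An edit need not lower the transcript count of its target, and the labels were not checked further. For its KMT2D-KO SCC23 cells, the study reports KMT2D mutations from sequencing of genomic DNA and the knockout from a western blot.

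Cells sense glucose and the energy drawn from it through several routes. The MondoA and ChREBP factors bind carbohydrate response elements when glucose 6-phosphate is present and drive TXNIP and ARRDC4, which restrain glucose uptake. Shortage of amino acids, of N-linked sugars or of energy activates the integrated stress response through ATF4, the unfolded protein response of the endoplasmic reticulum (ER), and the kinase AMPK, which restrains mTOR and cell growth. HNSCC cells draw heavily on glycolysis, and the comparison shows which transcripts of these routes differ after a short loss of glucose.

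Total counts of the (+Glc) libraries were 22379432 in experiment 1 and 62968057 and 55962793 in experiment 2. Those of the (-Glc) libraries were 21344923 in experiment 1 and 31074996 and 26020289 in experiment 2. For the (+Glc) libraries of experiment 2 the file headers record paired-end counting in which each mate added 1 count, and even numbers made up 68.5% and 67.4% of their counts between 1 and 10. The remaining 4 were single-end, with 38.3% to 42.3% even. Within experiment 2, read layout and glucose therefore cannot be told apart, whereas both libraries of experiment 1 have the same layout. A gene was called when edgeR's quasi-likelihood test with experiment as a covariate gave a Benjamini-Hochberg adjusted p under 0.05 and the difference in experiment 1 had the same direction. Levels are given below as CPM after TMM normalization, in the order experiment 1, WT1 and WT2 of experiment 2. Effects are log2 fold changes of (-Glc) against (+Glc) with the standard error of the fit.

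Of 17227 genes tested, 1231 (7.15%) were called higher and 1303 (7.56%) lower in glucose-deprived cells, with a median log2 fold change of 0.01 over all genes tested. Without regard to the test, 11.8% of genes lay below every control library in all 3 deprived libraries and 10.0% above. At 2-fold or more in the fit and in each experiment, 87 (0.505%) were called higher and 185 (1.07%) lower. An adjusted p under 0.05 with the opposite direction in experiment 1 was found for 2 further genes. The calls rested on all 4 libraries of experiment 2 together. Without any 1 of its 4 libraries, edgeR called 0 genes higher and at most 1 lower, TXNIP. In these fits 3847 to 5064 genes had an unadjusted p under 0.05, against 6976 in the main fit. The 2 (-Glc) libraries of experiment 2 differed by a chi-square of 1.71 per gene and the 2 (+Glc) libraries by 28.6, where 1 is sampling noise of single reads. When the (-Glc) pair was counted as 1 sample, edgeR called 0 genes higher and 1 lower, with 4196 at an unadjusted p under 0.05. TXNIP itself had an adjusted p of 0.0614 without the (+Glc) library WT2. The other called genes among those named by rule reached highest adjusted p-values between 0.162 and 0.225 in these fits, and none of them changed direction. Shares of a gene list called higher or lower, given in brackets, are to be read against the 7.15% and 7.56% of all genes tested.

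Among 10965 genes with a mean of at least 5 CPM, 44 differed at least 2-fold in the same direction in both experiments, 24 higher and 20 lower in glucose-deprived cells. No gene differed at least 2-fold in opposite directions. The 44 genes included TXNIP, ARRDC4, MFNG, DOK3, LCAT, AMH and SLC1A3 on the lower side, and STC2, DDIT4, CHAC1, DDIT3, TRIB3, SESN2, CEBPB, PPP1R15A, PPP1R3B, IL6R, LOX, DUSP1, HMOX1 and ARRDC3 on the higher side. A difference of at least 4-fold in experiment 2 with less than 2-fold in experiment 1 was found for 316 genes, of which 11 were called, and the reverse for 0. The glucose effect differed between the experiments for 1942 genes (11.3%) by edgeR's test of the interaction. Across genes, which are not independent replicates, the differences of the 2 experiments had a Pearson correlation of 0.28 over these 10965 genes. Over all 17227 genes tested, Pearson's correlation was 0.18 and Spearman's 0.37.

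**Figure D1:**
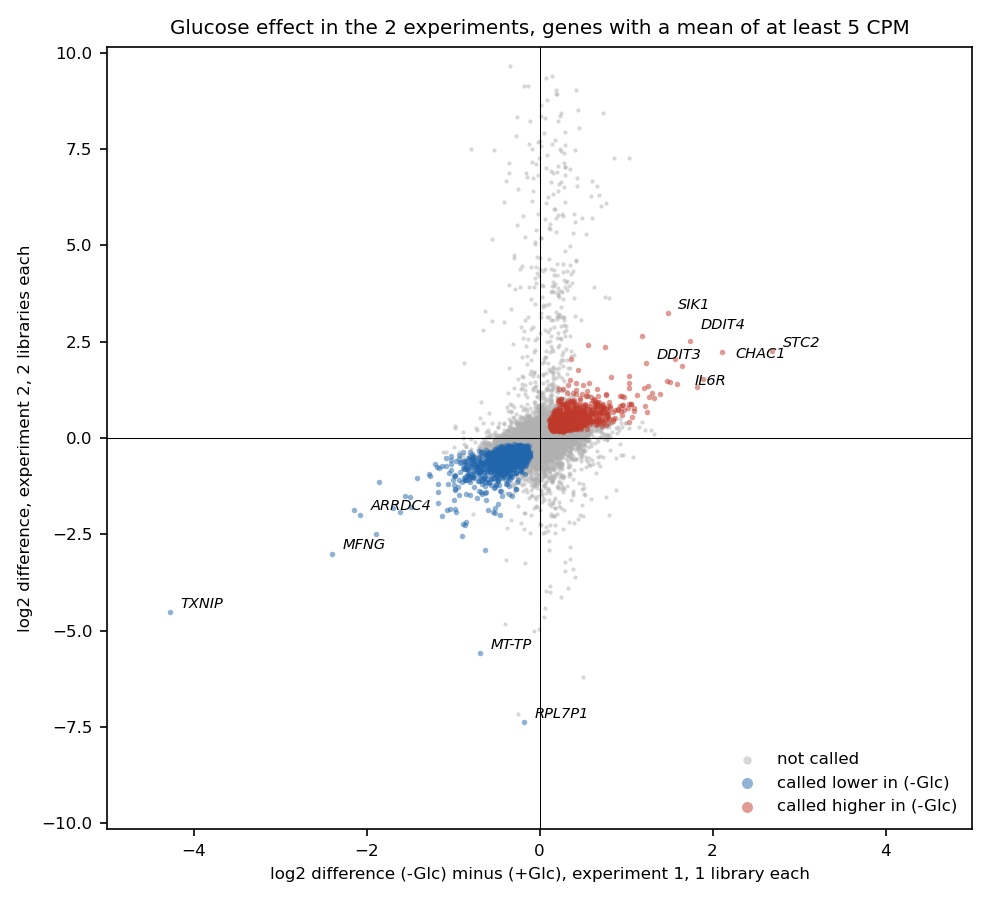
Log2 difference of (-Glc) minus (+Glc) in experiment 1 (x axis, 1 library each) against experiment 2 (y axis, 2 libraries each) for 10965 genes with a mean of at least 5 CPM, called genes in red (higher) and blue (lower). TXNIP lies at -4.27 and -4.52, STC2 at 2.69 and 2.27, and a vertical band of mostly uncalled genes near 0 on the x axis moved in experiment 2 alone.

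TXNIP, an arrestin-like protein that promotes the internalisation of glucose transporters, had the lowest log2 fold change among these 44 genes. TXNIP lies on chromosome 1 of GRCh38 from 145992435 to 145996579 on the minus strand. Its level was 125, 146 and 137 CPM in the (+Glc) libraries and 6.42, 5.52 and 6.77 CPM in the (-Glc) libraries. All 3 deprived libraries were far below all 3 control libraries, with a fitted ratio of 0.0457. The log2 fold change was -4.45 ± 0.11 (adjusted p = 0.000735), with -4.27 in experiment 1 and -4.52 in experiment 2. The 250 bases before the transcript start of TXNIP (RefSeq, GRCh38.p14, chr1:145996580-145996829, minus strand) are printed because this promoter holds the textbook element read by MondoA and ChREBP. Capitals mark the match to the carbohydrate response element, written as CACGNG, 5 further bases and CACGNG again, 88 to 72 bases before the start on the same strand.

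TXNIP: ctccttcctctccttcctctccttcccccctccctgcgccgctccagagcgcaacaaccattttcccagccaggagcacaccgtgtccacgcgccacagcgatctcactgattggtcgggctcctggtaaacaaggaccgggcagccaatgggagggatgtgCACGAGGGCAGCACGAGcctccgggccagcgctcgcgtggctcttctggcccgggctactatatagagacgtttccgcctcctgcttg

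This motif, searched on both strands of the same 250 bases, was found in 16 of 35116 promoters in the table (0.0456%). Among genes with a promoter in the table, 14 of 10748 tested genes (0.13%) held it, against 1 of 920 genes called lower (0.109%), which was TXNIP, and 0 of 943 called higher. A match is a description of the sequence, and the data do not show binding.

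ARRDC4, the closest relative of TXNIP and like it a target of MondoA, fell as well. ARRDC4 was at 10.5, 14.1 and 15.9 CPM in (+Glc) and at 2.46, 3.84 and 3.61 CPM in (-Glc) libraries (log2 fold change -2.03 ± 0.12, adjusted p = 0.00983). The groups did not overlap, and the difference was -2.07 in experiment 1 and -1.99 in experiment 2. Of 12 genes listed as targets or members of the Mondo glucose sensor, 4 were called lower and 4 higher (33.3% each), and the median log2 fold change was 0.07. The other members called lower were MLXIPL, which encodes ChREBP itself (log2 fold change -1.62, with all levels under 1 CPM), and KLF10, a glucose-responsive repressor (-0.90). Those called higher were ARRDC3 (1.47 ± 0.16), an arrestin relative, PFKFB3 (0.75 ± 0.11), which makes the activator of phosphofructokinase, and the sugar phosphate enzymes G6PC3 (0.50) and TKFC (0.45). MLXIP, which encodes MondoA, was at 151 to 178 CPM in (+Glc) and 147 to 183 CPM in (-Glc) libraries and was not called (-0.07, adjusted p = 0.472).

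Several genes outside the glucose sensor fell by similar factors. MFNG, a glycosyltransferase that modifies Notch receptors, was at 26.0, 29.0 and 28.3 CPM in (+Glc) and 4.87, 3.52 and 3.54 CPM in (-Glc) libraries. Its log2 fold change was -2.82 ± 0.16 (adjusted p = 0.00983), and the groups did not overlap. SLC1A3, a glutamate and aspartate transporter, was at 13.9, 21.4 and 21.3 CPM in (+Glc) and 4.25, 6.13 and 5.93 CPM in (-Glc) libraries (-1.79 ± 0.10). The adaptor DOK3 (-2.32 ± 0.18), the lipoprotein enzyme LCAT (-1.99 ± 0.17) and the hormone gene AMH (-1.85 ± 0.16) were likewise lower in all 3 deprived libraries than in any control library. RPL7P1 (-6.63), a ribosomal protein pseudogene, and MT-TP (-4.76), a mitochondrial tRNA gene, which had the lowest values among the named genes, differed by only -0.18 and -0.69 in experiment 1. RPL7P1 was at 0.444, 62.8 and 64.3 CPM in (+Glc) libraries and at 0.386, 0.254 and 0.418 CPM in (-Glc) libraries, so that the change lay in the 2 libraries counted with both mates.

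Other genes among the 44 rose from high levels. UPP1, uridine phosphorylase, which frees ribose from uridine, was at 390, 359 and 287 CPM in (+Glc) and 974, 658 and 672 CPM in (-Glc) libraries (1.14 ± 0.11, adjusted p = 0.0168). NEAT1, a nuclear long non-coding RNA of paraspeckles, was at 243, 197 and 214 CPM in (+Glc) and 578, 524 and 528 CPM in (-Glc) libraries (1.32 ± 0.06, adjusted p = 0.00983). Neither gene's levels overlapped between the groups, and both were picked from the 44 after their values were seen.

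**Figure D2:**
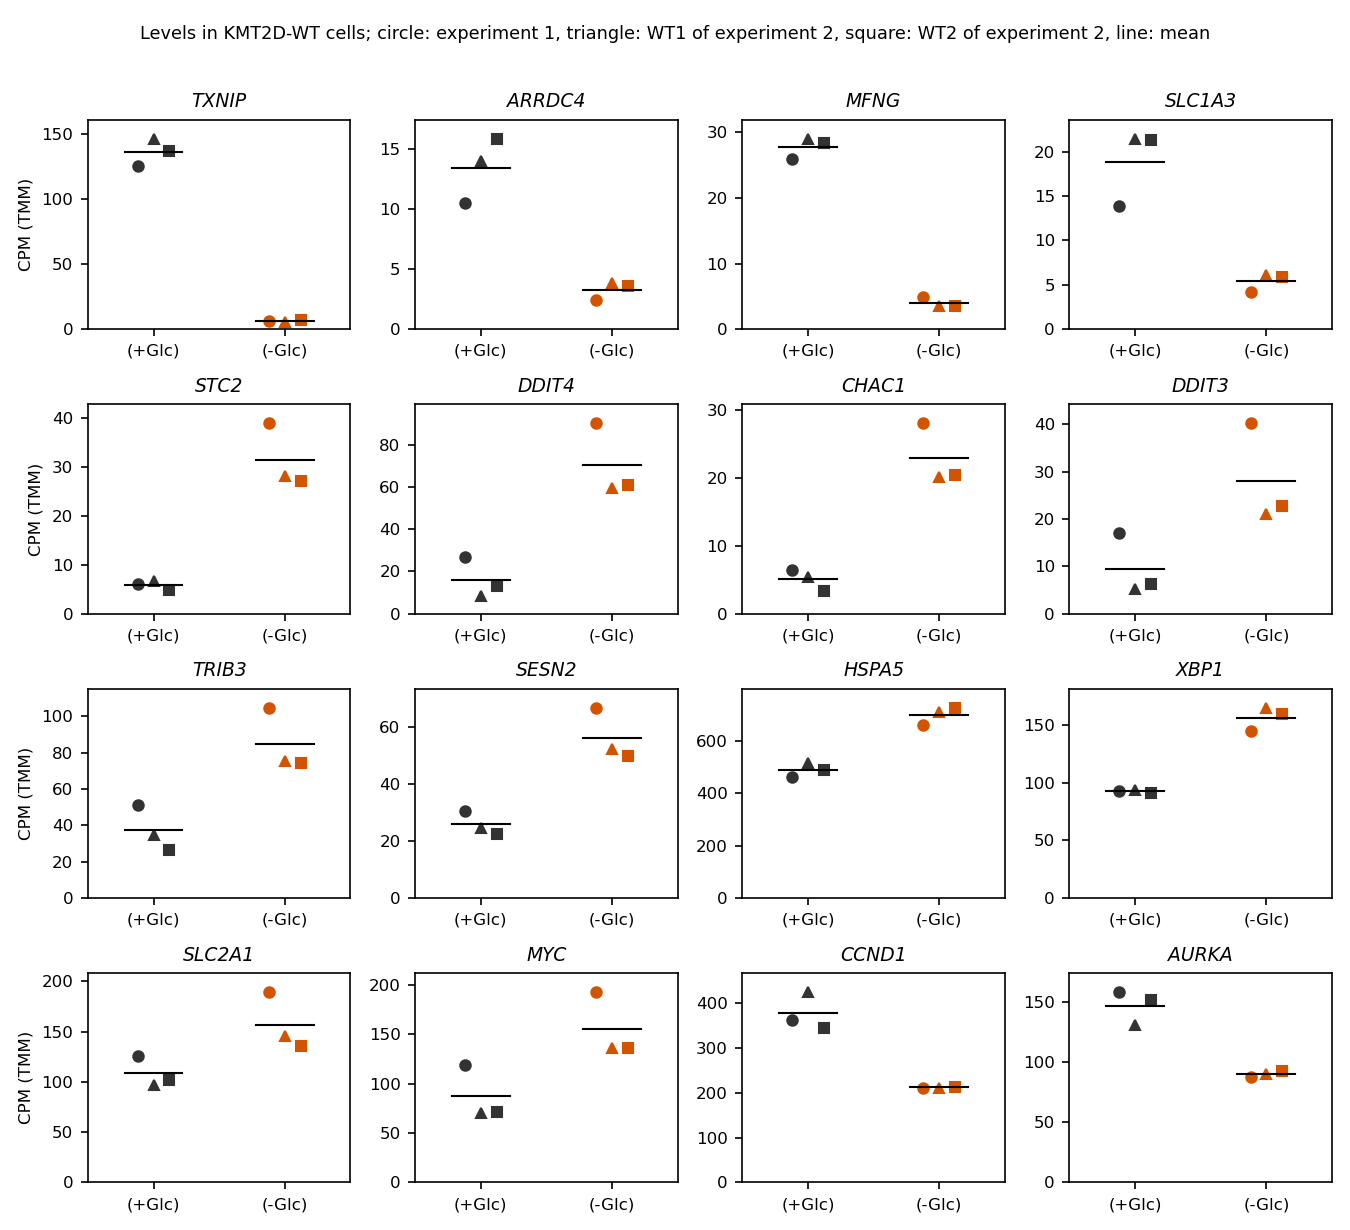
CPM of 16 genes in the 6 KMT2D-WT libraries, each panel on its own linear axis from 0, with (+Glc) in grey, (-Glc) in orange and a line at the mean. TXNIP falls from 125 to 146 CPM to 5.52 to 6.77 CPM, and the panels of the genes that rose show the experiment 1 library (circle) highest in (-Glc) for STC2, DDIT4, CHAC1, DDIT3, TRIB3, SESN2, SLC2A1 and MYC.

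Genes of the integrated stress response had the highest median of the lists examined. Of 42 tested genes of the ATF4 list, 22 were called higher (52.4%) and the other 20 were not called, with a median log2 fold change of 0.58. In all 3 deprived libraries, 22 of the 42 lay above every control library, against 10.0% of all genes tested. Of these 22 genes, 18 were called. STC2, a secreted glycoprotein induced by ER and nutrient stress, was at 6.00, 6.6 and 4.93 CPM in (+Glc) and 39.0, 28.3 and 27.1 CPM in (-Glc) libraries (2.40 ± 0.16, adjusted p = 0.0128). CHAC1, an enzyme that degrades glutathione, was at 6.44, 5.38 and 3.34 CPM in (+Glc) and 28.1, 20.2 and 20.4 CPM in (-Glc) libraries (2.19 ± 0.20). DDIT3, which encodes the stress factor CHOP, was at 17.1, 5.12 and 6.29 CPM in (+Glc) and 40.2, 21.1 and 22.8 CPM in (-Glc) libraries (1.71 ± 0.18). For each of these 3 genes the lowest deprived library was above the highest control library.

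Further genes of the list were called higher. TRIB3, a pseudokinase that restrains ATF4 and AKT, rose by 1.21 ± 0.12 on the log2 scale, and ATF3, a repressor of the same family as ATF4, by 1.02 ± 0.12. ASNS, asparagine synthetase, rose by a fitted 3.57-fold from a low level, from 1.51 to 2.06 CPM in (+Glc) to 5.78 to 6.69 CPM in (-Glc) libraries. CEBPB (1.42) and PPP1R15A (1.26), a transcription factor and the phosphatase subunit that ends the response, rose as well. The serine and one-carbon enzymes PSAT1 (0.60), SHMT2 (0.59), MTHFD2 (0.65) and PHGDH (0.48) were called higher at smaller sizes. ATF4 itself, which is controlled mainly at translation, was at 310, 224 and 220 CPM in (+Glc) and 418, 244 and 248 CPM in (-Glc) libraries and was not called (0.24 ± 0.07, adjusted p = 0.0737), with 0.43 in experiment 1 and 0.15 in experiment 2. Exons of DDIT3, DDIT4 and ASNS overlap those of other genes over 39.6%, 41.2% and 49.3% of their length, and in counting without strand such reads belong to no single gene. The same holds for PPAN (49.2%), CDK4 (44.2%), AMDHD2 (40.3%), LTV1 (34.7%), ERCC4 (25.7%) and IL6 (20.7%), described below.

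Aminoacyl-tRNA synthetases, which load amino acids onto tRNAs and are partly under ATF4, were mostly called higher. All 20 cytosolic members tested had a positive log2 fold change and 14 were called higher (70.0%), with a median of 0.33. AARS1 was at 282, 215 and 219 CPM in (+Glc) and 426, 354 and 362 CPM in (-Glc) libraries (0.68 ± 0.05, adjusted p = 0.0151). GARS1 was at 249, 254 and 248 CPM in (+Glc) and 331, 386 and 386 CPM in (-Glc) libraries (0.55 ± 0.06). CARS1 reached 0.68 ± 0.11, but its levels overlapped between the groups, and its effect was 0.33 in experiment 1 and 0.84 in experiment 2. The 6 members not called ranged from 0.00 for RARS1 to 0.19 for FARSA.

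Of 41 tested ER chaperone and unfolded protein response genes, 9 were called higher (22%, against 7.15% of all genes tested) and 3 lower (7.32%, against 7.56%), with a median of 0.14. HSPA5, the main ER chaperone BiP, was at 463, 514 and 489 CPM in (+Glc) and 659, 710 and 726 CPM in (-Glc) libraries (0.52 ± 0.05, adjusted p = 0.0168). XBP1, a transcription factor activated by splicing of its own RNA, was at 93.1, 93.9 and 91.4 CPM in (+Glc) and 145, 165 and 160 CPM in (-Glc) libraries (0.75 ± 0.06). HERPUD1, which serves the disposal of misfolded proteins, rose by 0.82 ± 0.08 on the log2 scale. Levels of these 3 genes did not overlap between the groups. The co-chaperone DNAJC3 was called lower (-0.54 ± 0.05), with 42.3, 76.5 and 73.1 CPM in (+Glc) and 28.6, 51.4 and 52.6 CPM in (-Glc) libraries. The other genes called lower were CREB3L2 (-0.44) and SYVN1 (-0.17).

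Promoters in the table were also searched for 2 elements of these responses, CCAAT with 9 further bases and CCACG (the ER stress response element, read by ATF6 with NF-Y) and TGATGNAA (the composite site of ATF4 with C/EBP factors), each on both strands of the 250 bases before the start. Those of 3 genes with a match and a called rise are printed from RefSeq in GRCh38.p14 with the match in capitals. That of HERPUD1 spans chr16:56931892-56932141 on the plus strand, XBP1 chr22:28800570-28800819 on the minus strand and HSPA5 chr9:125241344-125241593 on the minus strand.

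HERPUD1: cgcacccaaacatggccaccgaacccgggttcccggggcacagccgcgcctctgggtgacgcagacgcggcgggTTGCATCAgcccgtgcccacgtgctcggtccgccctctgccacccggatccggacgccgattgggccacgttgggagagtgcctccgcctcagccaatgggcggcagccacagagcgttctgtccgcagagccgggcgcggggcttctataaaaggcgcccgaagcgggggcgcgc
XBP1: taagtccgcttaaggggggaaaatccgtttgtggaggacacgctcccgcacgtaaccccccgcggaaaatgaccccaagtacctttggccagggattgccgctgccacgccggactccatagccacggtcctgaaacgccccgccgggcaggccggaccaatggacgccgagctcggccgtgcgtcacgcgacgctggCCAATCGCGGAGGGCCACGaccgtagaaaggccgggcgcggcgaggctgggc
HSPA5: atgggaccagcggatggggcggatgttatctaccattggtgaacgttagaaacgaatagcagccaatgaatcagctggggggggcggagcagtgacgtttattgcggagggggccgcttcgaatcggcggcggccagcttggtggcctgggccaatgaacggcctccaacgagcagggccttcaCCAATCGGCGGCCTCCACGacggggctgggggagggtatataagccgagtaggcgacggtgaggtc

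The capitals in HERPUD1 are the ATF4 composite site read from the opposite strand, 176 to 169 bases before the start. CHAC1 held the same site on the opposite strand 209 to 202 bases before its RefSeq start (window chr15:40953221-40953470), within an exon of a longer transcript in the annotation of the files. Those in XBP1 and HSPA5 are the ER stress response element on the same strand, 52 to 34 and 66 to 48 bases before the start. The windows of STC2, DDIT4 and DDIT3 held none of the 3 motifs. Those of STC2 and DDIT3 lie within the longer span of these genes in the annotation of the files. They do not cover the bases before that further end. The ER stress response element occurred in 26 of 35116 promoters (0.074%) and the ATF4 composite site in 1104 (3.14%). By gene, the former was held by 16 of 10748 tested genes (0.149%) and 5 of 943 called higher (0.53%), the latter by 245 tested genes (2.28%) and 32 called higher (3.39%). Among the 38 tested ER genes with a promoter in the table, 9 held the ER stress response element, of which CALR, HSP90B1, HSPA5 and XBP1 were called higher and the other 5 were not called, while 9 of the 38 were called higher with or without it. Among 34 tested ATF4 genes with a promoter, 7 held the composite site, and ASNS, ATF3, CEBPG, CHAC1 and JDP2 were the 5 called higher, of 19 called higher among the 34.

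Genes that report low energy to mTOR rose in part. Of 31 tested genes of AMPK, sestrins and mTOR regulation, 8 were called higher (25.8%) and 3 lower (9.68%), with a median of 0.17. DDIT4 (REDD1), an inhibitor of mTOR complex 1, was at 26.9, 8.30 and 13.3 CPM in (+Glc) and 90.2, 59.7 and 60.9 CPM in (-Glc) libraries (2.24 ± 0.24, adjusted p = 0.0168). SESN2, a leucine sensor that also restrains mTOR, was at 30.6, 24.6 and 22.3 CPM in (+Glc) and 66.6, 52.2 and 49.5 CPM in (-Glc) libraries (1.12 ± 0.06, adjusted p = 0.00983). Both genes were above all control libraries in every deprived library, and the effect of SESN2 was 1.12 in each experiment. FLCN (0.73) and FNIP1 (0.74 ± 0.05), which form a complex at the lysosome that controls Rag GTPases and TFE3, were called higher together with RRAGC (0.71), a Rag GTPase. STK11, which encodes the AMPK kinase LKB1 (-0.34), RPTOR (-0.34) and CASTOR2 (-0.65) were called lower. SIK1, a kinase of the AMPK family, had the largest positive value among the named genes, 2.73 ± 0.42, from 0.993 to 1.95 CPM in (+Glc) to 5.55 to 11.4 CPM in (-Glc) libraries. Its effect was 1.48 in experiment 1 and 3.25 in experiment 2 (adjusted p of that difference 0.0142), and the annotation holds a near-identical copy, SIK1B, at 0.522 CPM without normalization. PPP1R3B, a subunit that directs protein phosphatase 1 to glycogen, rose by 1.48 ± 0.11 with the same size in both experiments.

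Of 33 tested glucose transport and glycolysis genes, 6 were called higher (18.2%, against 7.15% of all genes tested) and 1 lower (3.03%, against 7.56%), with a median of 0.07. SLC2A1, the widely expressed glucose transporter GLUT1, was at 97.2 to 126 CPM in (+Glc) and 136 to 189 CPM in (-Glc) libraries (0.53 ± 0.05, adjusted p = 0.0168). HK2, the hexokinase common in tumours, was at 116, 142 and 138 CPM in (+Glc) and 213, 203 and 197 CPM in (-Glc) libraries (0.64 ± 0.08). Neither gene overlapped between the groups. PFKFB3 (0.75), GPI (0.27), PFKFB2 (0.26) and the lactate carrier SLC16A1 (0.26) completed the genes called higher, and the muscle enolase ENO3 was called lower (-1.05 ± 0.20). LDHA, lactate dehydrogenase A, was not called, at 760 to 1091 CPM in (+Glc) and 790 to 845 CPM in (-Glc) libraries (-0.19, adjusted p = 0.195), and neither was PGK1 (0.11, adjusted p = 0.186).

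Single steps in branches of glucose metabolism were called. Among 21 genes of the pentose phosphate and hexosamine pathways, 4 were called higher (19.0%) and 2 lower (9.52%). The amino sugar enzymes AMDHD2 (0.81) and GNPDA1 (0.72), which return N-acetylglucosamine phosphate to glycolysis, the pentose enzyme RPIA (0.73) and TALDO1 (0.20) rose. OGA (-0.71) and OGT (-0.43), which remove and add O-linked N-acetylglucosamine on proteins, fell. OGA was at 141, 181 and 178 CPM in (+Glc) and 85.4, 109 and 112 CPM in (-Glc) libraries, with no overlap. Of 37 tested genes of the TCA cycle and pyruvate dehydrogenase, 5 were called higher (13.5%), with SUCLG2 (0.61) and PDP2 (0.48) the largest, and OGDH was called lower (-0.37; 2.70% of the list). Of 19 tested genes of glutamine and aspartate metabolism, ASNS, ASL (0.51), GPT2 (0.37) and GOT1 (0.29) were called higher (21.1%). Cholesterol and fatty acid synthesis genes were split, with 5 of 38 called in each direction (13.2% each), from ACACB (-0.97 ± 0.18) to INSIG1 (0.55 ± 0.10).

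**Figure D3:**
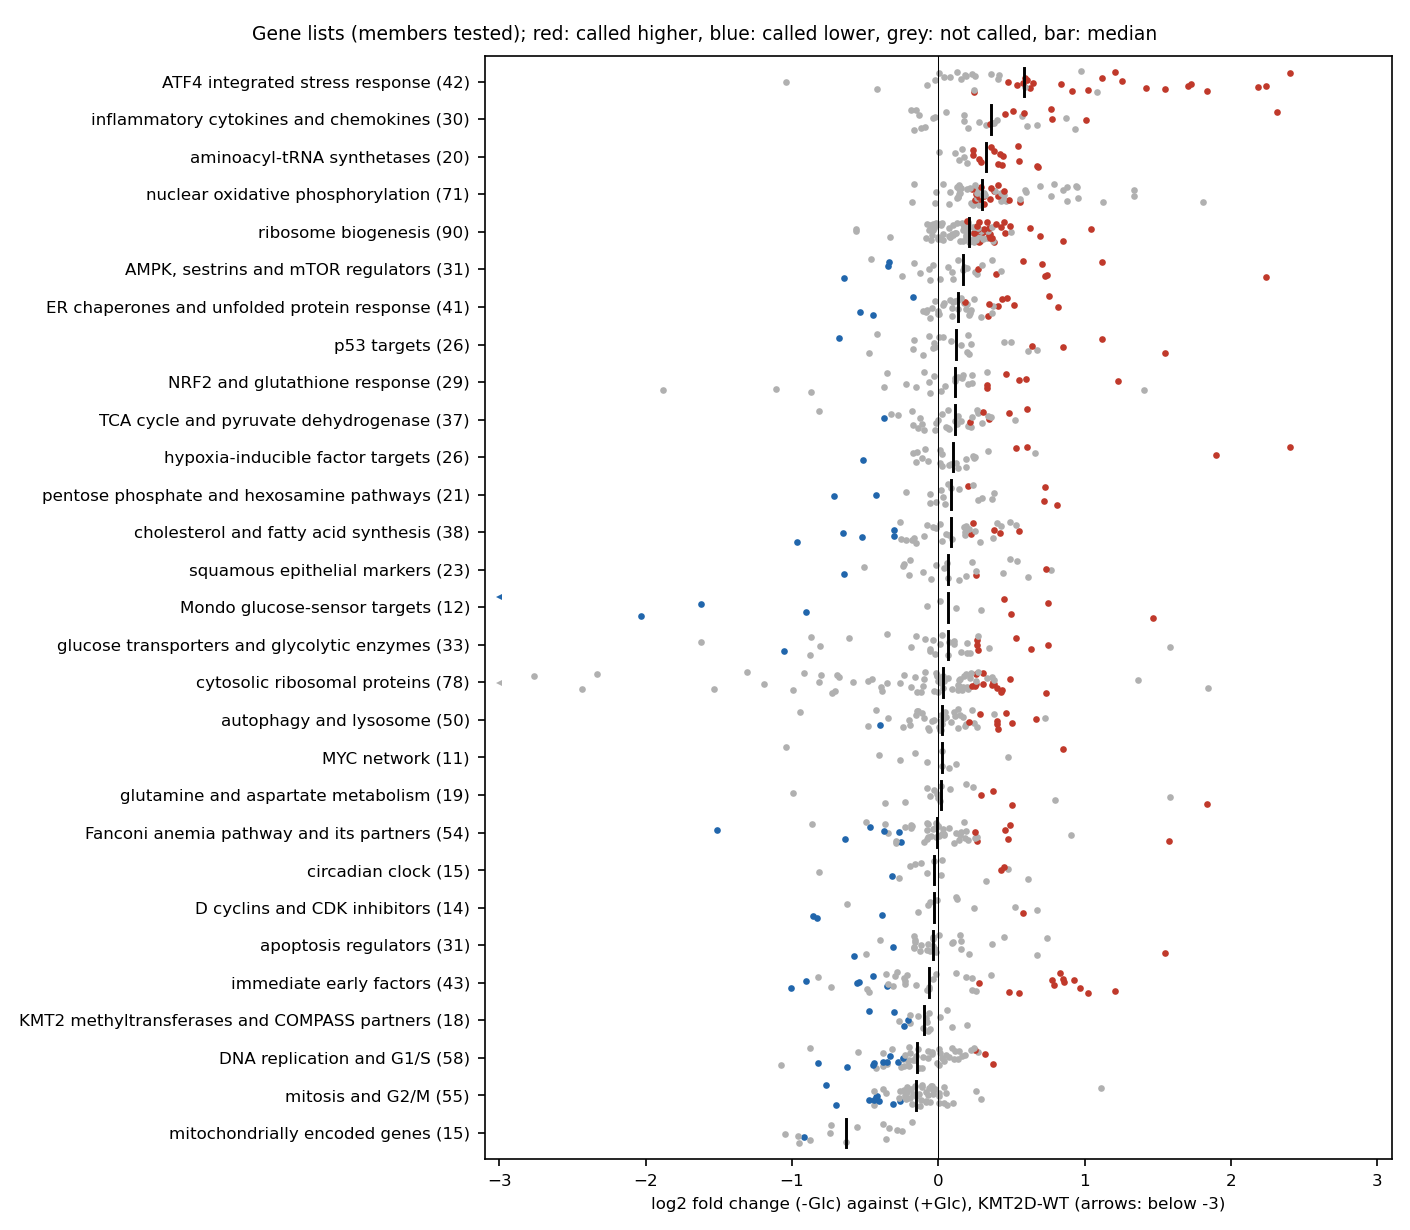
Log2 fold change of (-Glc) against (+Glc) for the tested members of 29 gene lists, ordered by their median (bar), with members called higher in red, called lower in blue and not called in grey. The ATF4 list has the highest median (0.58) and the mitochondrially encoded genes the lowest (-0.63), with 1 of 15 members called.

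Stress and growth factor response genes moved in both directions. Of 43 tested immediate early genes, 12 were called higher (27.9%) and 6 lower (14%), with a median of -0.07. DUSP1, a MAP kinase phosphatase, was at 64.4, 61.1 and 50.7 CPM in (+Glc) and 158, 130 and 120 CPM in (-Glc) libraries (1.20 ± 0.09, adjusted p = 0.0148). EGR1, a growth factor response gene, was at 114, 121 and 179 CPM in (+Glc) and 80.6, 64.9 and 60.6 CPM in (-Glc) libraries (-1.01 ± 0.22, adjusted p = 0.0397). Neither gene's levels overlapped. Of 30 tested cytokine and NF-kB genes, 8 were called higher (26.7%) and the other 22 were not called, with a median of 0.36. TNFAIP3, a brake on NF-kB, was at 314, 300 and 228 CPM in (+Glc) and 520, 462 and 452 CPM in (-Glc) libraries (0.77 ± 0.11), and LIF, a cytokine of the IL-6 family, reached 0.78 ± 0.13 with overlapping levels. IL6 rose by 1.01 ± 0.16 from 2.76 to 4.57 CPM to 5.82 to 7.81 CPM, PTGS2, which encodes the prostaglandin enzyme COX-2, by 2.32 ± 0.49 from under 1 CPM to 0.965 to 2.93 CPM, and the receptor gene IL6R from 20.6, 16.1 and 13.8 CPM to 64.5, 55.0 and 54.6 CPM (1.80 ± 0.09, adjusted p = 0.00983).

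Among 29 NRF2 and glutathione genes, 6 were called higher (20.7%), led by HMOX1, which degrades heme, at 44.6, 36.8 and 17.0 CPM in (+Glc) and 91.6, 65.6 and 68.5 CPM in (-Glc) libraries (1.22 ± 0.28, adjusted p = 0.0463). MAFG (0.60) and MAFF (0.55), small partners of NRF2, were next. Of 26 hypoxia-inducible factor targets, STC2, LOX (1.90 ± 0.22), VEGFA (0.60 ± 0.08) and SLC2A1 were called higher (15.4%) and EPAS1 (-0.51) lower (3.85%). LOX, which cross-links collagen, was at 2.71, 2.00 and 3.11 CPM in (+Glc) and 8.10, 10.5 and 10.6 CPM in (-Glc) libraries. Of 26 p53 targets, BBC3 (1.55), SESN2, GADD45A (0.85 ± 0.09) and GADD45B (0.64) were called higher (15.4%) and TIGAR (-0.68) lower (3.85%). Members of several of these lists are shared with the ATF4 list, so that the counts are not independent.

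Called genes of the protein synthesis machinery were higher, most of them by less than 2-fold. MYC, a master regulator of growth genes, was at 119, 70.7 and 71.6 CPM in (+Glc) and 192, 136 and 136 CPM in (-Glc) libraries (0.85 ± 0.06, adjusted p = 0.0148), with no overlap, and was the 1 gene called among 11 of the MYC network. Of 90 ribosome biogenesis genes, 27 were called higher (30.0%), with a median of 0.21, which was 0.12 in experiment 1 and 0.26 in experiment 2. Among them PPAN (1.04), LTV1 (0.70) and RRP15 (0.63) were at 0.33, 0.21 and 0.30 in experiment 1, and DDX47, with all levels under 4 CPM, at 0.86 in experiment 1 and 0.84 in experiment 2. Of 71 nuclear oxidative phosphorylation genes, 16 were called higher (22.5%), with a median of 0.14 in experiment 1 and 0.37 in experiment 2. Of 78 cytosolic ribosomal protein genes, 15 were called higher (19.2%), with a median of 0.03, which was 0.21 in experiment 1 and -0.06 in experiment 2. Of the 78, 1 lay above every control library in all 3 deprived libraries, against 10.0% of all genes tested, and single members ranged from -3.53 for RPL41 to 1.85 for RPL26, neither called. RPL26 was at 384 CPM in the (+Glc) and 452 CPM in the (-Glc) library of experiment 1, against 51.7 and 56.5 CPM in (+Glc) and 326 and 331 CPM in (-Glc) libraries of experiment 2.

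Mitochondrially encoded genes had a median of -0.63 over 15 members, which was -0.05 in experiment 1 and -0.80 in experiment 2. MT-CO3, a subunit of cytochrome oxidase, was the 1 member called (-0.92 ± 0.19, adjusted p = 0.0365), at 2251, 3200 and 4411 CPM in (+Glc) and 1617, 1716 and 1743 CPM in (-Glc) libraries. MT-ND1 was at 2000 and 2049 CPM in the (+Glc) and (-Glc) libraries of experiment 1, and at 2552 and 3424 against 986 and 1031 CPM in experiment 2. The median over these genes ranged from -0.99 to -0.59 over other scalings and tools.

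Most called cell cycle genes were lower. Of 55 mitosis and G2/M genes, 9 were called lower (16.4%, against 7.56% of all genes tested) and the other 46 were not called, with a median of -0.25 in experiment 1 and -0.09 in experiment 2. AURKA, a mitotic kinase, was at 158, 131 and 151 CPM in (+Glc) and 87.6, 90.4 and 92.4 CPM in (-Glc) libraries (-0.70 ± 0.08, adjusted p = 0.0171). UBE2S (-0.77 ± 0.14), which extends ubiquitin chains for the anaphase-promoting complex, and CDCA2 (-0.47 ± 0.07) were also lower without overlap. The effect of UBE2S was -0.35 in experiment 1 and -0.97 in experiment 2, which differed (adjusted p = 0.0184). Of 58 genes of DNA replication and the G1/S transition, 9 were called lower (15.5%) and 3 higher (5.17%), among the former E2F2 (-0.82 ± 0.14), CDC6 (-0.62 ± 0.10) and CLSPN (-0.44 ± 0.05). CCND1, which encodes cyclin D1, was at 362, 425 and 345 CPM in (+Glc) and 212, 212 and 214 CPM in (-Glc) libraries (-0.83 ± 0.09, adjusted p = 0.0168). CCND2 (-0.85 ± 0.19) and CCND3 (-0.38) were called lower and CDK4 (0.58 ± 0.10) higher, the effect of CCND2 being -0.26 in experiment 1 and -1.14 in experiment 2.

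Fanconi anemia (FA) genes, which repair DNA crosslinks and are a subject of the study, were called in both directions in KMT2D-WT cells. Of 54 tested FA genes and partners, 6 were called in each direction (11.1% each, against 7.15% of all genes tested higher and 7.56% lower), with a median of -0.01. The extremes were CENPS (1.58 ± 0.27) and POLN (-1.51 ± 0.25), both under 4 CPM in all libraries. FANCD2 was at 82.5, 113 and 110 CPM in (+Glc) and 87.2, 103 and 103 CPM in (-Glc) libraries (-0.05 ± 0.06, adjusted p = 0.521). FANCI (0.02 ± 0.06), FANCM (0.04 ± 0.06), REV3L (-0.02 ± 0.06), TOP3A (-0.07 ± 0.07) and ATR (0.10 ± 0.06) were not called either. BRCA1 was called lower at a small size (-0.25 ± 0.05, adjusted p = 0.0338), with 54.0, 95.6 and 98.4 CPM in (+Glc) and 48.3, 79.3 and 78.5 CPM in (-Glc) libraries. The nuclease gene ERCC4 was at 16.8, 32.0 and 33.0 CPM in (+Glc) and 11.9, 19.3 and 20.6 CPM in (-Glc) libraries (-0.64 ± 0.08). Levels of BRCA1 and ERCC4 differed more between the experiments than between the conditions.

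KMT2D itself was at 294, 285 and 290 CPM in (+Glc) and 254, 250 and 249 CPM in (-Glc) libraries (-0.21 ± 0.04, adjusted p = 0.0393), with no overlap. Of 18 KMT2 methyltransferases and partners, SETD1B (-0.47 ± 0.05), SETD1A (-0.31 ± 0.07) and EP300 (-0.24 ± 0.05) were the others called lower (22.2% with KMT2D). Of 50 tested autophagy and lysosome genes, 8 were called higher (16.0%), led by GABARAPL1 (0.67), and 1 lower (2.00%), ATG9A (-0.40). Of 31 apoptosis regulators, BBC3 was called higher (3.23%), and BIRC5 (-0.31) and APAF1 (-0.57) lower (6.45%), which is at or below the 7.15% and 7.56% of all genes tested. Of 15 tested clock genes, NR1D2 (0.45) and NFIL3 (0.43) were called higher (13.3%) and CLOCK (-0.32) lower (6.67%).

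The squamous identity of the cells was checked against its markers. The summed level of 10 squamous markers was 3814 to 5193 CPM in (+Glc) and 3747 to 3861 CPM in (-Glc) libraries. Markers of fibroblasts summed to at most 7.46 CPM, of immune cells to at most 1.20 CPM and of endothelial cells to at most 1.24 CPM in any library, and 1 immune marker was at 0 in all. The basal keratin KRT14 was at 197 to 257 CPM and the squamous lineage factor TP63 at 78.2 to 141 CPM, while the stress keratin KRT6A was at most at 0.380 CPM. Of 23 tested squamous genes, KRT17 (0.74 ± 0.08) and ITGA6 (0.26) were called higher (8.70%) and ITGB4 (-0.64 ± 0.11) lower (4.35%), shares near or below the 7.15% and 7.56% of all genes tested.

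The effect in KMT2D-WT cells was set beside that in the cells labelled KMT2D-KO, from lines KO1 and KO2. In experiment 1, where all libraries have 1 layout, 916 of the 1206 genes called higher that were also tested in KMT2D-KO cells had a positive difference there, and 1033 of 1244 genes called lower a negative one. Over all 15537 genes tested in both, 7285 were positive and 8252 negative. All 22 genes called higher in the ATF4 list were positive in KMT2D-KO cells of experiment 1, as were all 14 tRNA synthetases and all 8 cytokine genes. Of the 27 ribosome biogenesis genes called higher, 16 were positive there. Called or not, most members of the first 3 lists with a value there were positive. They were 39 of 42 ATF4 genes, 19 of 20 synthetases and 24 of 28 cytokine genes, against 45 of 89 ribosome biogenesis genes. The direction was thus not particular to the called members.

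Several of the largest effects had the same direction in both genotypes. TXNIP was at -4.27 in KMT2D-WT and -3.04 in KMT2D-KO cells of experiment 1, STC2 at 2.69 and 1.96, CHAC1 at 2.11 and 2.49, MFNG at -2.40 and -1.63, and CCND1 at -0.77 and -0.74. The test of the difference over all 14 libraries gave 0.89 ± 0.38 for TXNIP (adjusted p = 0.149), 0.11 ± 0.55 for STC2 (0.922) and 0.11 ± 0.12 for CCND1 (0.62), which does not show that the genotypes act alike. Over all genes, 2105 of 18678 (11.3%) had a different glucose effect in KMT2D-KO cells, and 1272 without experiment nested in the glucose condition. The effects of LOX and IL6R were larger in KMT2D-WT than in KMT2D-KO cells, the differences being -1.95 ± 0.30 (adjusted p = 0.00267) and -1.46 ± 0.38 (0.0293). LOX was at 1.56 in KMT2D-WT and 0.10 in KMT2D-KO cells of experiment 1, and IL6R at 1.65 and 0.43. The effect of SLC1A3 was smaller in size in KMT2D-KO cells (1.19 ± 0.25, adjusted p = 0.0109).

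Other responses were smaller in KMT2D-WT than in KMT2D-KO cells. DUSP1 differed by 2.34 ± 0.20 (adjusted p = 6.9e-05), MYC by 1.34 ± 0.11 (4.49e-05), IL6 by 2.28 ± 0.24 (0.000352), GADD45A by 1.63 ± 0.16 (0.000162) and ATF3 by 1.53 ± 0.16 (0.000277). The ER genes XBP1 (1.18 ± 0.21, adjusted p = 0.00527), HERPUD1 (1.29 ± 0.34, 0.0294) and HSPA5 (0.93 ± 0.26, 0.0396) differed in the same direction. ATR, REV3L and TOP3A, not called in KMT2D-WT cells, were at -0.87, -0.79 and -0.61 in KMT2D-KO cells of experiment 1, and the genotypes differed by -0.75 ± 0.15 (adjusted p = 0.0102), -0.53 ± 0.16 (0.0482) and -0.54 ± 0.14 (0.0278). For FANCM the difference was -0.71 ± 0.22 (0.0591), for FANCD2 -0.20 ± 0.12 (0.3) and for FANCI -0.02 ± 0.11 (0.928), none of which passed the test. The double counting of mates in (+Glc) libraries of experiment 2 applied to both genotypes alike. The genotype test, here and above, takes all 14 libraries as independent and has no term for lines KO1 and KO2. It was not repeated with single libraries left out or with the close (-Glc) pair counted as 1 sample. Its p-values thus measure only the spread between these libraries.

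**Figure D4:**
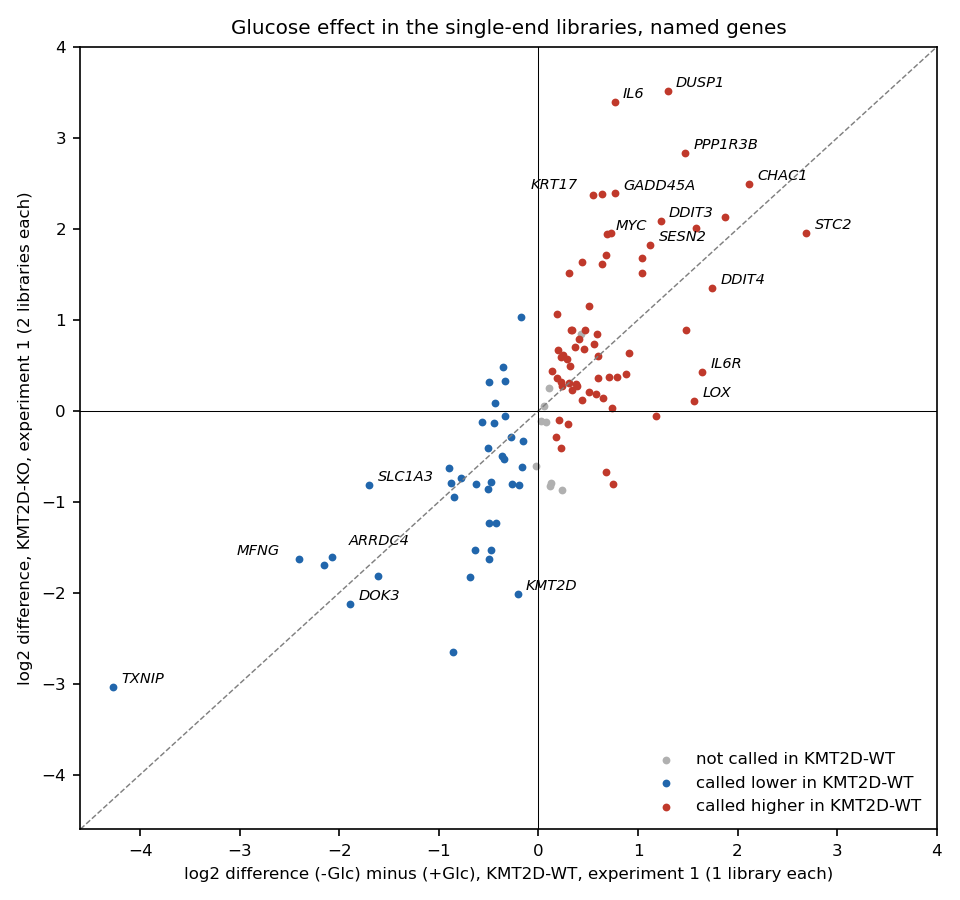
Log2 difference of (-Glc) minus (+Glc) in experiment 1 for the named genes, KMT2D-WT (x axis, 1 library each) against KMT2D-KO (y axis, 2 libraries each), with a dashed line of equality. TXNIP, MFNG and ARRDC4 lie in the lower left, STC2 and CHAC1 in the upper right, DUSP1 (1.30 and 3.52) and IL6 (0.77 and 3.39) above the line, and LOX (1.56 and 0.10) and IL6R (1.65 and 0.43) below it.

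A fit of the 6 single-end libraries of experiment 1 from KMT2D-WT, KO1 and KO2 cells, chosen after seeing the data, called 143 genes higher and 295 lower, of which 91 and 206 were also called in KMT2D-WT cells in the same direction. It shares the 2 KMT2D-WT libraries of experiment 1 with the main comparison. A call in it also required the direction of the KMT2D-WT difference in experiment 1, as the main calls did. A gene called in both could therefore not differ in direction, and the shared direction is no separate result. Genes not tested in the main comparison could not be called in it, though they count among the genes tested in it. Of the ATF4 list, 18 genes were called higher in that fit, against 143 of all 18571 genes tested in it, and 17 were called higher in both comparisons. TXNIP (-3.46, adjusted p = 2.86e-05), CHAC1 (2.38, 2.86e-05), SESN2 (1.59, 0.000525), ATF4 (0.71, 0.0374) and CCND1 (-0.75, 0.0201) were called, whereas IL6R (0.91, 0.168), LOX (0.56, 0.307), HK2 (0.57, 0.197) and AARS1 (0.61, 0.0805) were not. Of the 14 aminoacyl-tRNA synthetases, 27 ribosome biogenesis genes and 16 oxidative phosphorylation genes called higher in KMT2D-WT cells, 1, 1 and 0 were called higher by edgeR in that fit. Over all genes, it called 91 of the 1231 genes called higher in KMT2D-WT cells, and 143 of the 18571 genes tested in it. Of the genes called in KMT2D-WT cells and named above, EGR1 (0.04), UBE2S (0.21), ITGB4 (0.11), RPL7P1 (0.72), PDP2 (-0.20) and ITGA6 (-0.13) had the opposite direction in it.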

How the data were processed

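PolyA RNA of SCC23 cells was sequenced in the 14 libraries of the series, of which the 6 labelled KMT2D-WT were compared. The authors mapped reads to GRCh38 with HISAT2 and, per the file headers, deposited raw counts per gene name from featureCounts version 2.0.3 on Ensembl release 102, counted without strand and with reads that touch several genes left out. The headers record primary alignments while the methods of the study name uniquely mapped reads. Both mates were counted in the (+Glc) libraries of experiment 2. Total counts were 21344923 to 62968057 per library over 59471 gene names.

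Counts were tested with edgeR version 4.0.16 in R version 4.3.3 (TMM normalization, filterByExpr with a minimum count of 10, quasi-likelihood test, experiment as covariate, Benjamini-Hochberg adjustment). A gene was called at an adjusted p under 0.05 with the same direction in experiment 1 (log2 CPM with a prior count of 2). Genotypes were compared in a fit of all 14 libraries. Standard errors are the size of the log2 fold change divided by the square root of F. Tested on simulated data, the fit recovered 20.6%, 44.2% and 67.9% of genes changed 1.5-, 2- and 4-fold, with 8.51% false calls, while DESeq2 gave 39.1% false calls. The simulated libraries were independent draws, without a read layout that goes with glucose and without a close pair of libraries. These rates therefore do not measure the share of false calls in the real data.

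Genes named were the 12 largest called changes of each direction with the same direction in both experiments, the 3 largest called members of each list, in both cases with a mean of at least 5 CPM and a usual gene symbol, and a fixed list of genes, 112 in all. The samples, lists and genes were chosen with earlier results of these data known. Other called list members are named beside them from the same lists. Alternatives covered normalization (RLE, library sizes), filters, the covariate, DESeq2 version 1.42.0, halved counts, a gene length offset, subsets of libraries and each library left out. Deviations of same-numbered libraries of experiment 2 had a correlation of 0.00126. The (-Glc) pair differed by little more than sampling noise (chi-square 1.71 per gene), so this value cannot tell whether the numbers mark pairs. The labels do not say so either, and the numbers were not taken as pairs in the main fit. Promoters are those of RefSeq (GRCh38.p14), 250 bases before the first listed start, and gene positions and overlaps come from the deposited annotation columns.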

Additional observations from a re-analysis of the deposited data

Results flagged for a closer look

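Groups of 3 libraries were not tested for outlying values of single genes. By edgeR's interaction test, the glucose effect differed between the experiments for 19 of the 112 named genes, against 11.3% of all genes tested. Adjusted p-values of the 19 were 0.000761 to 0.0418, and in all 19 the effect was larger in experiment 2. Most named genes were picked by the size of their called effect, in a fit where most libraries came from experiment 2. Their share and direction are therefore not independent of that choice. As experiment 2 minus experiment 1 on the log2 scale, the differences were 1.79 for SIK1, 1.48 for SDHAP3, 1.62 for HERC2P3, 1.89 for ACTBP11, 1.69 for EEF1B2P3, 0.51 for CARS1, 0.59 for LIF, 1.06 for PPAN, 0.72 for LTV1, 0.76 for FAU and 0.50 for ATP5MF on the positive side. On the negative side they were -7.38 for RPL7P1, -4.90 for MT-TP, -1.66 for MAMDC4, -1.37 for RPE65, -1.34 for CYP4F26P, -0.62 for UBE2S, -0.88 for CCND2 and -0.46 for ITGB4. Only the (+Glc) side of experiment 2 had 2 counts per read pair, so that read layout and glucose cannot be told apart there. Counts of near-identical copies such as FAUP1 (31.3 CPM) stand beside FAU, and its share in the difference was not tested.

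The glucose effect differed between KMT2D-WT cells and the libraries labelled KMT2D-KO for 28 of the 112 named genes, against 11.3% of all genes tested. Adjusted p-values of the 28 were 4.49e-05 to 0.0484 by edgeR's test over all 14 libraries. Most named genes were picked by their called effect in KMT2D-WT cells, so this share is not independent of that choice. As KMT2D-KO minus KMT2D-WT, 17 differences were positive. They were 2.60 for KRT17, 2.34 for DUSP1, 2.28 for IL6, 1.73 for PPP1R3B, 1.63 for GADD45A, 1.53 for ATF3, 1.34 for MYC, 1.29 for HERPUD1, 1.23 for MAFF, 1.19 for SLC1A3, 1.18 for XBP1, 1.04 for TNFAIP3, 0.93 for HSPA5, 0.84 for ITGB4, 0.77 for SESN2, 0.65 for DNAJC3 and 0.59 for CARS1. The 11 negative differences were -1.95 for LOX, -1.46 for IL6R, -1.34 for TIGAR, -1.33 for CYP4F26P, -1.07 for HERC2P3, -0.90 for PDP2, -0.88 for APAF1, -0.75 for ATR, -0.54 for TOP3A, -0.53 for REV3L and -0.41 for BRCA1. The same difference in read layout held in both genotypes. This test took the 14 libraries as independent, without a term for the KMT2D-KO lines, and was not repeated with single libraries left out.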

How the results depend on the processing

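Against 1231 genes called higher and 1303 lower, the counts were 2966 higher without a filter on low counts, 3581 and 2098 with DESeq2, 4899 and 4061 in experiment 2 alone, 205 and 361 in a fit of 14 libraries, and 87 and 185 at 2-fold or more in the fit and in each experiment. Without the experiment covariate they were 0 and 2, with the close pair of (-Glc) libraries summed 0 and 1, and in experiment 1 with both KMT2D-KO lines, a fit chosen after seeing the data, 143 and 295. Leaving out 1 library gave 0 to 4749 higher and 0 to 4004 lower, the high values without an experiment 1 library, where no direction could be required. RLE factors, library sizes, a 1 CPM filter, halved counts, a length offset or no requirement on experiment 1 kept both counts within 1.5 times. The share of calls that were higher was 48.6%, and it was 61.9% without a filter, 63.1% with DESeq2, 36.2% with 14 libraries, 32.0% at 2-fold and 32.6% in the fit of experiment 1. With the 3 replicate numbers as a block, 0 genes were called higher and 1 lower, with 5231 at an unadjusted p under 0.05, and the labels do not say that a number marks a pair. The genotype difference was called for 1272 instead of 2105 genes without experiment nested in condition. The fit of experiment 1 reversed HERC2P3 (-0.26), RPL7P1 (0.72), PDP2 (-0.20), EGR1 (0.042), ATP6V1C1 (-0.195), UBE2S (0.21), ITGB4 (0.11), ITGA6 (-0.13), LDHA (0.060), ATR (-0.49), FANCM (-0.49) and FANCI (-0.067). Uncalled values near 0 changed sign for REV3L (0.012 with RLE factors, 0.070 with a length offset, 0.018 with the close pair summed, 0.0046 with DESeq2) and FANCD2 (0.014 with a length offset). Leaving out 1 library gave -0.089 to 0.021 for REV3L, -0.14 to 0.0070 for TOP3A and -0.031 to 0.067 for FANCI, positive without the (-Glc) library WT2 for REV3L and without the (+Glc) library WT1 for TOP3A, and negative without the (+Glc) library WT2 for FANCI. The cause was not tested.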
